A study of Mus musculus with 64 samples.

Results

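The phosphatase genes Dusp1, Dusp4, Dusp5, Dusp6 and Dusp14 and the early response genes Ier2, Ier5 and Btg2 were followed in the brains of mice given psilocybin. They were taken by name as 8 of the 55401 genes in the deposited count table, and all 8 passed the filter on low counts that left 18971 genes to test. RNA of the hypothalamus and of the prefrontal cortex (PFC, which the sample labels call frontal cortex) was sequenced from 32 group-housed male C57BL/6J mice, a wild type inbred strain kept on chow. At 10 weeks of age each mouse was injected once into the peritoneum, with psilocybin at 3 mg/kg, a prodrug of the serotonin 5-HT2A receptor agonist psilocin, or with isotonic saline. Mice were killed 3 h or 4 weeks later, in the morning, so that region, treatment and harvest formed 8 groups of 8 samples, and no group carried a transgene or deletion. Mice of the 4 week groups were therefore about 4 weeks older at harvest, and age, time since handling and harvest session cannot be told apart in a comparison of 3 h with 4 weeks.

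MAP kinases relay signals from receptors and from calcium entry to the nucleus, where they switch on early response genes within minutes. Dual specificity phosphatases, the Dusp family, remove phosphate from the MAP kinases, and several Dusp genes are themselves switched on by the kinases they turn off, which closes a negative feedback loop. In cortex, transcripts of this kind rise after neuronal activity and fall again within hours. They are therefore commonly read beside Fos, Egr1 and Arc as marks of recent activity.

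Dusp1 encodes a nuclear phosphatase that prefers the stress kinases p38 and JNK, and its gene model in the table (ENSMUSG00000024190) lies on chromosome 17 from 26505590 to 26562128 of GRCm38, minus strand. Dusp4 encodes a nuclear phosphatase of ERK and JNK (ENSMUSG00000031530, chromosome 8 from 34807297 to 34819894, plus strand). Dusp5 encodes a nuclear phosphatase that acts on ERK (ENSMUSG00000034765, chromosome 19 from 53529109 to 53542431, plus strand). Dusp6 encodes a cytoplasmic phosphatase of ERK (ENSMUSG00000019960, chromosome 10 from 99263231 to 99267489, plus strand). Dusp14 encodes a small atypical member of the family without the kinase-binding domain of the others (ENSMUSG00000018648, chromosome 11 from 84048041 to 84069261, minus strand). Ier2 (ENSMUSG00000053560, chromosome 8 from 84661331 to 84662854, minus strand) and Ier5 (ENSMUSG00000056708, chromosome 1 from 155096361 to 155099636, minus strand) encode related nuclear proteins induced by growth factors and stress. Btg2 encodes an antiproliferative protein that recruits the CCR4-NOT deadenylase to messenger RNA (ENSMUSG00000020423, chromosome 1 from 134075170 to 134079120, minus strand). The Dusp1 gene model overlaps 640 bases of Ergic1 on the opposite strand, a gene with a median of 2260 counts per library, so that reads in the shared bases could be assigned to either gene.

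The promoter letters are shown for the genes whose windows held a site of the factors that activity is known to engage, CREB and SRF. RefSeq windows (GRCm38.p6) were at hand for 6 of the 8 genes, and the 250 bases before the transcription start were searched on both strands. The full cyclic AMP response element TGACGTCA, the site of CREB, was present in 1.62% of 27025 promoters and was found in those of Dusp1 and Btg2. The CArG box, the site of SRF, was present in 1.4% of promoters and was found in that of Dusp5 as 2 adjoining matches. The shorter core TGACG, which also lies within the full element, was present in 17.9% of promoters and was found in Dusp1, Btg2 and Dusp5. None of the 6 windows held TATAAA, present in 13.0% of promoters, and those of Dusp6, Dusp14 and Ier5 held none of the motifs. The windows below run 5′ to 3′ on the strand of the gene, with the full element, a separate core TGACG in Dusp1 and the CArG boxes of Dusp5 in capitals.
Dusp1, chr17:26508588-26508683, minus strand: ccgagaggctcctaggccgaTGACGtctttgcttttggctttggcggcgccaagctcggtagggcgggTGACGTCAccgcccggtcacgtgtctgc
Btg2, chr1:134079294-134079341, minus strand: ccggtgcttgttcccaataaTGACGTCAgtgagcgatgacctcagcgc
Dusp5, chr19:53529043-53529102, plus strand: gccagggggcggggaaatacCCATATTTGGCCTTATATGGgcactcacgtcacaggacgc
The full element lay 143 to 136 bases before the start of Dusp1 and 166 to 159 bases before that of Btg2, and the CArG boxes of Dusp5 spanned bases 82 to 63 before its start. These are RefSeq starts, and that of Dusp1 lies well inside the longer gene model that was counted (26505590 to 26562128). The exon length of 3311 bases behind the Dusp1 level per kilobase is that of the longer model. A match is a description of letters only, and binding was not measured in these samples.

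Of the 64 libraries, 62 held from 8061033 to 70361839 counts (median 18287978.5) and were used. A hypothalamus saline library of the 3 h group and a PFC psilocybin library of the 4 week group held 211111 and 200066 counts and were left out, which left 7 samples in those groups. The dissections matched their labels: all 8 markers of cortical excitatory neurons were higher and all 10 hypothalamic markers lower in PFC than in hypothalamus of saline mice at 4 weeks. Libraries that stood apart were PFC saline 4 weeks replicate 3 (the highest early gene levels of its group), PFC saline 4 weeks replicate 6 (1770 CPM summed over 8 striatal markers against at most 796 in any other library), and PFC psilocybin 3 h replicate 7 and hypothalamus psilocybin 4 weeks replicate 5 (the lowest quality weights). Summed over 8 hepatocyte markers, the median library held 3.25 CPM, while hypothalamus psilocybin 4 weeks replicate 3 held 5384, hypothalamus psilocybin 3 h replicate 5 held 3885 and PFC saline 4 weeks replicate 8 held 1453 CPM. Results were recomputed without these libraries. Hypothalamus saline 4 weeks replicate 3 held 1238 CPM summed over 6 choroid plexus markers, against at most 248 in any other library. In bulk tissue, fewer cells of a type and less RNA per cell cannot be told apart.

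Levels are given as CPM, counts scaled to 1000000 counts on genes after TMM normalization, and between genes as CPM per kilobase of exon. In PFC of saline mice at 4 weeks the order per kilobase was led by Dusp14 (36.9 ± 3.18 CPM per kb, SD, n = 8), ahead of Ier5 (18.3 ± 2.11) and Dusp6 (14.1 ± 3.17). Dusp1 (5.55 ± 2.66) and Btg2 (5.26 ± 1.96) followed and differed by less than their spread, as did Ier2 (2.59 ± 1.49), Dusp5 (2.18 ± 0.722) and Dusp4 (1.85 ± 0.530) at the low end. The ranges of Ier5 and Dusp6 per kilobase overlapped, while that of Dusp14 lay above all others. In hypothalamus of the same mice Dusp14 again led (7.19 ± 0.488 CPM per kb, SD, n = 8), followed by Dusp6 (5.52 ± 0.606) and Ier5 (5.09 ± 0.659), which did not differ beyond their spread. Btg2 (3.87 ± 0.747) and Dusp1 (3.62 ± 0.957) came next, and Dusp4 (2.22 ± 0.280), Ier2 (2.00 ± 0.407) and Dusp5 (1.36 ± 0.365) were lowest. The gap between Dusp14 and the other genes was thus wide in PFC and narrow in hypothalamus.

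**Figure D1:**
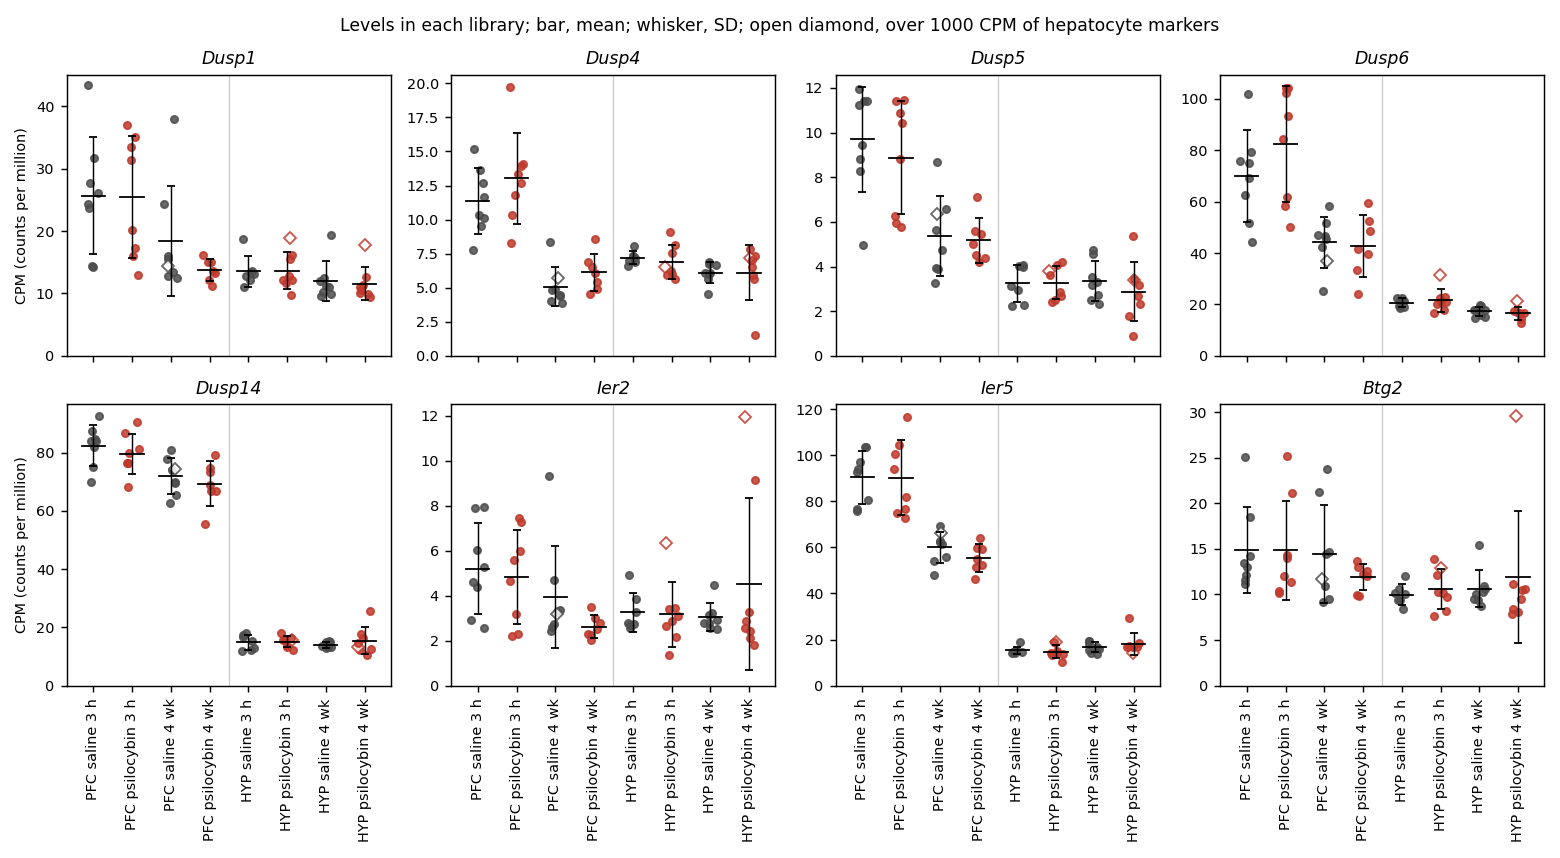
CPM (vertical axes, from 0) of each gene in the 62 libraries, by region, treatment and harvest, with the mean as a bar and the SD as a whisker. In PFC, the means of Dusp4, Dusp5, Dusp6 and Ier5 are higher at 3 h than at 4 weeks in both treatments, with points that overlap except for Ier5, and the highest Btg2 point, 29.6 CPM, belongs to a hypothalamus library with hepatocyte markers (open diamond).

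Among the ERK phosphatases, Dusp6 had the highest counts. In PFC at 3 h it ranged over 44.1 to 102 CPM (median 72.1) in saline and 50.0 to 104 CPM (median 89.0) in psilocybin mice. At 4 weeks the values were 25.1 to 58.2 CPM (median 46.0) and 24.2 to 59.5 CPM (median 41.5). The medians at 3 h lay above the highest 4 week library in both treatments, although the ranges overlapped. In hypothalamus the 4 group medians lay at 16.6 to 21.2 CPM, and single libraries at 12.6 to 31.5 CPM.

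Dusp4 in PFC spanned 7.74 to 15.2 CPM (median 11.0) in saline mice at 3 h and 8.25 to 19.7 CPM (median 13.0) in psilocybin mice at 3 h. At 4 weeks it spanned 3.88 to 8.38 CPM (median 4.64) and 4.54 to 8.57 CPM (median 6.11). The highest saline library at 4 weeks was replicate 3, and without it the highest of that group would lie below every 3 h saline library. In hypothalamus Dusp4 had medians of 6.08 to 7.15 CPM, with 1 library, psilocybin 4 weeks replicate 5, at 1.51 CPM.

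Dusp5 had the lowest mean CPM of the 5 phosphatases in each group except PFC saline 4 weeks, where Dusp4 was lower (means of 5.07 ± 1.45 and 5.38 ± 1.79 CPM, SD, n = 8). In PFC at 3 h it lay at 4.97 to 11.9 CPM (median 10.3) in saline and 5.77 to 11.5 CPM (median 9.64) in psilocybin mice. At 4 weeks it lay at 3.26 to 8.66 CPM (median 5.20) and 4.18 to 7.13 CPM (median 5.00), so that ranges overlapped in both treatments. Group medians in hypothalamus were 2.92 to 3.24 CPM.

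Dusp1, the phosphatase that prefers p38 and JNK, was widely spread at 3 h in PFC, at 14.2 to 43.4 CPM (median 25.2) in saline and 13.0 to 37.0 CPM (median 25.8) in psilocybin mice. At 4 weeks it was 12.5 to 38.0 CPM (median 15.0) in saline and 11.2 to 16.2 CPM (median 13.6) in psilocybin mice. The highest of the 4 week saline libraries was replicate 3, and 1 further library of that group lay above the psilocybin range. Hypothalamus medians were 10.8 to 13.1 CPM. Dusp14, the atypical member, differed more between the regions than between groups of a region: the PFC medians were 68.8 to 84.0 CPM, the hypothalamus medians 13.6 to 15.6 CPM, and the lowest PFC library (55.3 CPM) lay above the highest hypothalamus library (25.6 CPM).

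Of the early response genes, Ier5 had the highest level in PFC, 75.9 to 104 CPM (median 93.2) in saline and 72.9 to 117 CPM (median 87.9) in psilocybin mice at 3 h. At 4 weeks it stood at 48.1 to 69.2 CPM (median 61.9) and 46.2 to 64.2 CPM (median 54.9), and in neither treatment did the 3 h and 4 week ranges overlap. In hypothalamus the group medians were 14.1 to 16.8 CPM. Ier2 was low throughout, with PFC medians of 2.50 to 5.12 CPM and hypothalamus medians of 2.72 to 2.97 CPM. Its single libraries reached 9.31 CPM in PFC saline 4 weeks replicate 3 and 11.95 CPM in hypothalamus psilocybin 4 weeks replicate 3. Btg2 had PFC medians of 12.3 to 13.2 CPM and hypothalamus medians of 9.98 to 10.2 CPM.

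To ask whether psilocybin moved these genes, psilocybin was compared with saline in each region at each harvest with edgeR's quasi-likelihood test. None of the 8 genes passed a Benjamini-Hochberg adjusted p of 0.05 in any of the 4 comparisons. At 3 h in PFC 0 of 8 passed, where 0.0105% of all genes did, and 0 of 8 had an unadjusted p under 0.05, against 7.23% of all genes. At 4 weeks in PFC and at both harvests in hypothalamus 0 genes of the whole table passed, and 2.40%, 1.78% and 9.61% of all genes had an unadjusted p under 0.05, again with 0 of the 8. The limma procedure of the study (voom with quality weights and the animal as a block), run here on the 62 libraries, also called 0 of the 8 in each comparison, while it called 6.49% of all genes at 3 h in PFC and 0 genes in the other 3. DESeq2 called 9 genes of the whole table at 3 h and 19 at 4 weeks in PFC, 0 at 3 h and 13 at 4 weeks in hypothalamus, and none of the 8. The ranges of the treatments overlapped for every one of the 8 in every comparison. Among all genes, 0.00527% lay wholly higher and as many wholly lower in psilocybin than in saline mice at 3 h in PFC, and 0.0474% wholly lower at 3 h in hypothalamus.

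The widths of the intervals differed by gene. At 3 h in PFC the log2 fold change of Dusp6 was 0.22 (95% confidence interval -0.067 to 0.50) and that of Dusp4 was 0.20 (-0.13 to 0.53), the 2 furthest above 0. Under the study's procedure they were 0.39 (adjusted p = 0.0530, limma) and 0.32 (adjusted p = 0.115, limma). Dusp14 had the narrowest interval, -0.21 to 0.10 around -0.054, followed by Ier5, -0.19 to 0.18 around -0.0054. Dusp1 (-0.0082, -0.38 to 0.36), Dusp5 (-0.14, -0.54 to 0.27) and Btg2 (-0.41 to 0.41) were less precise, and Ier2, the gene with the fewest counts per kilobase at 3 h, allowed changes in log2 from -0.69 to 0.53. The median log2 fold change of the 8 genes was -0.0068, beside -0.0074 for all genes tested. Leaving out Ier2, the interval bounds furthest from 0 were -0.54 (Dusp5) and 0.53 (Dusp4).

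At 4 weeks in PFC the log2 fold changes for psilocybin ran from -0.55 for Ier2 (-1.20 to 0.10) and -0.38 for Dusp1 (-0.77 to 0.018) to 0.27 for Dusp4 (-0.089 to 0.62), with a median of -0.077. PFC saline replicate 3 was the highest saline library for the 3 genes named. Without it the values were -0.27, -0.18 and 0.42. In hypothalamus at 3 h all 8 lay between -0.11 (Dusp4, -0.46 to 0.24) and 0.072 (Btg2, -0.35 to 0.50). At 4 weeks Ier2 was at 0.58 (-0.038 to 1.20) and the other 7 between -0.20 and 0.15. In that group Ier2 was 11.95 CPM in replicate 3 and 9.17 CPM in replicate 5, and at most 3.28 CPM in the other 6 libraries. Without replicate 3, the library with the most hepatocyte markers, the Ier2 value was 0.16 and that of Btg2 -0.16.

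**Figure D2:**
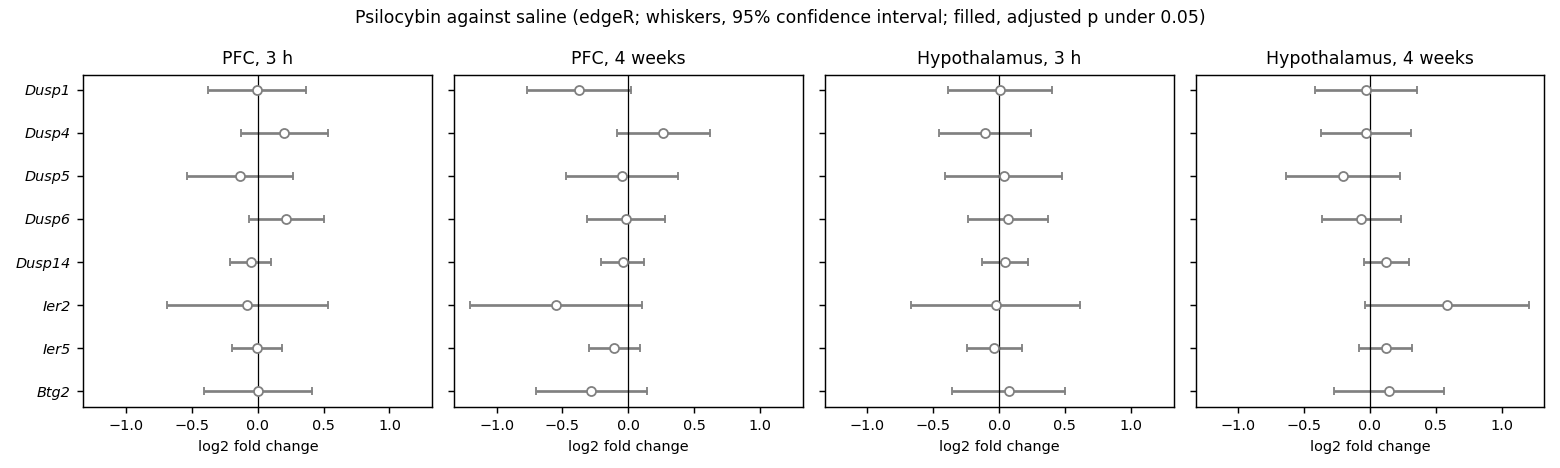
Log2 fold change of psilocybin against saline (horizontal axes) with its 95% confidence interval for each gene, in PFC and hypothalamus at 3 h and 4 weeks. All 32 intervals include 0 and no point is filled, since 0 of 8 genes passed the adjusted p in each panel.

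Whether the effect of psilocybin differed between harvests or regions was tested with interaction terms. No gene of the 8 passed for 3 h against 4 weeks in PFC, for 3 h against 4 weeks in hypothalamus, or for PFC against hypothalamus at 3 h, and 0 of all genes tested did (edgeR; 3.08%, 5.27% and 2.78% of all genes had an unadjusted p under 0.05, and 0 of the 8). The study's procedure called 1 (0.00527%), 0 and 8 (0.0422%) of all genes in these 3 terms and DESeq2 4, 0 and 0, and none of the 8 followed here. Between harvests the difference in log2 fold change was furthest from 0 for Ier2, 0.47 in PFC (-0.41 to 1.36) and -0.61 in hypothalamus (-1.50 to 0.28), where the study's procedure gave 0.023 and where the 4 week value of Ier2 rests in part on replicate 3, as given above. Between regions at 3 h Dusp4 was furthest from 0, at 0.31 (-0.18 to 0.79), and Ier2 was at -0.052.

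Harvest time separated the groups in PFC. Among saline mice, 4 of the 8 genes were higher at 3 h than at 4 weeks and none lower, where 2.39% of all genes were called higher and 2.34% lower. They were the ERK phosphatases Dusp4, Dusp5 and Dusp6 and the early response gene Ier5. Dusp4 was 2.20-fold higher (log2 1.14 ± 0.17, SE, n = 8 and 8, adjusted p = 7.84e-06, edgeR). Dusp5 was 1.78-fold higher (log2 0.83 ± 0.20, adjusted p = 0.00852, edgeR), Dusp6 1.59-fold (log2 0.67 ± 0.14, adjusted p = 0.00210, edgeR) and Ier5 1.51-fold (log2 0.59 ± 0.095, adjusted p = 2.78e-05, edgeR). Ier5 alone of the 8 had ranges that did not overlap, as had 0.322% of all genes in that direction. The median log2 fold change was 0.52 over the 8 genes, beside -0.0040 over all genes tested.

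The other 4 genes did not pass in saline mice. Dusp1 was at 0.44 (95% confidence interval 0.065 to 0.81, adjusted p = 0.183, edgeR), and this turned on 1 library: without PFC saline 4 weeks replicate 3, whose Dusp1 was 38.0 CPM, it was 0.66 with an adjusted p of 0.0259 (edgeR). That library was set apart for its high early gene levels, so the call gained without it cannot serve as support. Dusp14 was at 0.20 (0.045 to 0.36) and passed without hypothalamus psilocybin 4 weeks replicate 5 (0.20, adjusted p = 0.0313, edgeR). Ier2 was at 0.36 (-0.25 to 0.96) and Btg2 at 0.029 (-0.38 to 0.43).

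Among psilocybin mice in PFC, 5 of the 8 genes were higher at 3 h, Dusp1 besides the 4 above, and none lower, where 2.70% of all genes were called higher and 3.26% lower. Dusp4 was 2.10-fold (log2 1.07 ± 0.18, SE, n = 8 and 7, adjusted p = 4.11e-05, edgeR), Dusp6 1.87-fold (log2 0.90 ± 0.15, adjusted p = 5.31e-05, edgeR) and Dusp1 1.75-fold higher (log2 0.81 ± 0.20, adjusted p = 0.00753, edgeR). Ier5 was 1.62-fold (log2 0.69 ± 0.10, adjusted p = 3.09e-06, edgeR) and Dusp5 1.67-fold higher (log2 0.74 ± 0.21, adjusted p = 0.0264, edgeR). The ranges of Ier5 again did not overlap, as was so for 0.696% of all genes. Ier2 was at 0.83 (0.18 to 1.48), Btg2 at 0.31 (-0.11 to 0.73) and Dusp14 at 0.19 (0.027 to 0.35), and none of the 3 passed. The study's procedure called Dusp14 (0.21, adjusted p = 0.00486, limma), and a fit of only the 2 groups compared called Ier2 (0.88, adjusted p = 0.0472, edgeR). The Dusp5 call was lost with no filter on low counts (0.74, adjusted p = 0.0532, edgeR) and when any of 3 libraries was left out (psilocybin 4 weeks replicate 1 or 4, or psilocybin 3 h replicate 5, adjusted p = 0.0606, 0.0800 and 0.0787, edgeR). The saline and psilocybin comparisons share no samples, and the difference between them, the interaction above, passed for none of the 8. Dusp14 passed without hypothalamus psilocybin 4 weeks replicate 5 (0.19, adjusted p = 0.0451, edgeR), a library that enters only through the shared estimate of the spread and the scaling.

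The extraction pool, which the labels give per sample, divided cages 1 to 4 (pools A and C) from cages 5 to 8 (pools B and D). Within pools A and C 1075 of 18557 genes tested were called between harvests in saline and 839 in psilocybin mice, and within pools B and D 44 and 93 of 19328. Within pools A and C the saline mice kept the calls of Dusp4, Dusp6 and Ier5, with Dusp5 at 0.78 (adjusted p = 0.0570, edgeR). In psilocybin mice of pools A and C the log2 fold changes were 1.20 for Dusp1, 1.33 for Dusp4, 1.13 for Dusp5, 1.16 for Dusp6 and 0.73 for Ier5, and all 5 passed. Within pools B and D no gene of the 8 passed in saline or psilocybin mice, with log2 fold changes of 1.20 for Dusp4, 0.86 for Dusp5, 0.76 for Dusp6 and 0.60 for Ier5 in saline mice. In psilocybin mice of pools B and D they were 0.50 for Dusp1, 0.88 for Dusp4, 0.42 for Dusp5, 0.65 for Dusp6 and 0.65 for Ier5. Markers of other cell types were compared between harvests in PFC in the same way. Of the 8 excitatory neuron markers 0 were called in either treatment, of 6 microglial markers 1 was higher in both (Tmem119, 0.53 and 0.55), of 6 astrocyte markers 1 was called, higher in psilocybin mice (Aldh1l1, 0.35), and of the 10 hypothalamic markers Nkx2-1 and Trh were lower in saline mice, where the study's procedure called 0 of the 10. Summed over the hypothalamic markers, PFC saline 4 weeks replicate 3 held 24.2 CPM and the other libraries of that group at most 10.02 CPM. All 6 astrocyte markers had log2 fold changes above 0 in saline (median 0.18) and psilocybin mice (median 0.26), and the study's procedure called 3 astrocyte, 2 microglial, 1 excitatory neuron and 1 oligodendrocyte marker higher in psilocybin mice, where it called 9.60% of all genes higher. The 8 striatal markers were all below 0 in saline mice (median -0.76, from -1.46 to -0.28) and had a median of 0.25 in psilocybin mice, with 0 called in either. Their summed level spanned 205 to 627 CPM in saline mice at 3 h and 188 to 1770 CPM at 4 weeks. The summed microglial markers spanned 348 to 613 CPM in saline mice at 3 h and 346 to 543 CPM at 4 weeks. The part of these markers in the result was not tested.

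**Figure D3:**
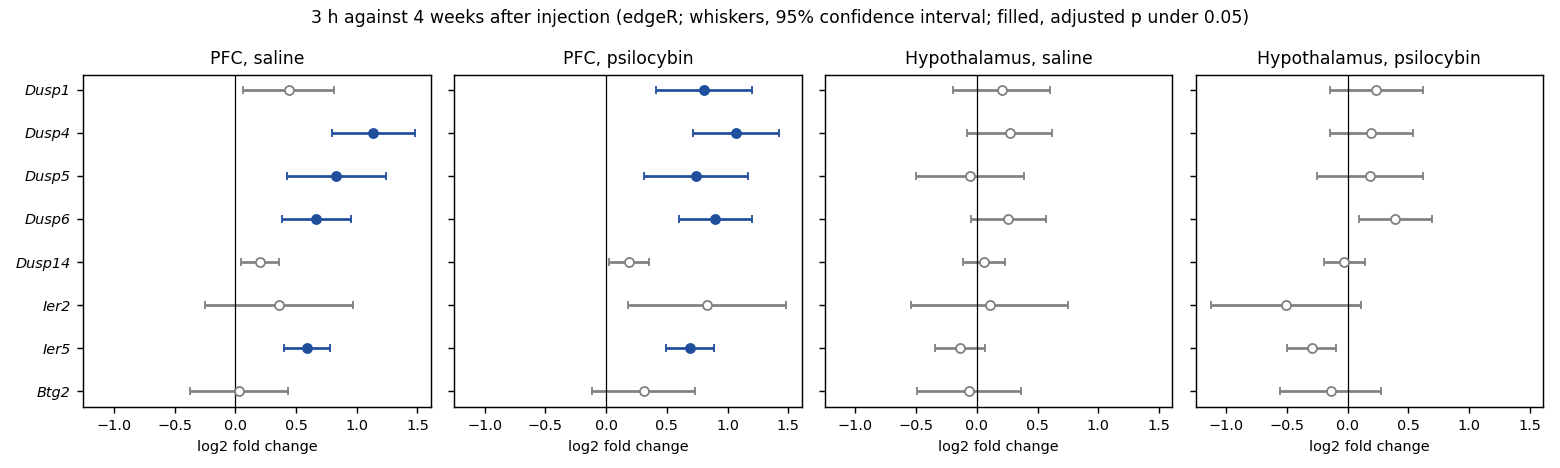
Log2 fold change at 3 h against 4 weeks (horizontal axes) with its 95% confidence interval, in saline and psilocybin mice of both regions. Filled points passed the adjusted p: 4 of 8 genes in PFC of saline mice, 5 of 8 in PFC of psilocybin mice and 0 of 8 in either panel of the hypothalamus.

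In hypothalamus none of the 8 genes passed between the harvests. In saline mice 0 of 8 were called, where 0.685% of all genes were, and 0 of 8 had an unadjusted p under 0.05, against 8.09% of all genes. The log2 fold changes of Dusp4 (0.27, -0.082 to 0.62), Dusp6 (0.26, -0.048 to 0.57) and Ier5 (-0.14, -0.35 to 0.069) were each below their values in PFC. In psilocybin mice 0 of 8 were called, where 1.16% of all genes were, and Dusp6 (0.39, adjusted p = 0.164, edgeR) and Ier5 (-0.30, adjusted p = 0.122, edgeR) had an unadjusted p under 0.05, as had 17.4% of all genes. The Ier5 difference there was opposite in sign to that in PFC, and hypothalamus psilocybin 4 weeks replicate 5 held 29.2 CPM of Ier5 against at most 18.5 in the other 7 libraries of its group. Without that library the Ier5 value was -0.18 (adjusted p = 0.518, edgeR).

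The difference between regions in the harvest contrast was itself tested in saline mice. Ier5 passed, with a log2 fold change 0.73 larger in PFC than in hypothalamus (0.45 to 1.01, adjusted p = 0.0116, edgeR), 1 of 7 genes in the whole table (0.0369%). This call was lost within either pair of extraction pools (0.65 in A and C, adjusted p = 0.204, and 0.79 in B and D, adjusted p = 0.99996, edgeR), with all 64 libraries (adjusted p = 0.0511), with no filter on low counts (0.0576) and with no term for the extraction pool (0.0667), all by edgeR, while the study's procedure kept it (adjusted p = 6.84e-04, limma). Dusp4 was at 0.87 (adjusted p = 0.293, edgeR) and passed when the 4 libraries that stood apart were left out (1.04, adjusted p = 0.00154, edgeR), or hypothalamus psilocybin 4 weeks replicate 5 alone (0.87, adjusted p = 0.0463, edgeR). PFC saline 4 weeks replicate 3, 1 of the 4, was set apart for its high early gene levels, so the call gained without the 4 cannot serve as support. Dusp5 was at 0.88 (0.28 to 1.49, adjusted p = 0.467, edgeR). The remaining 5 genes lay between 0.10 and 0.41.

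Genes around the MAP kinase loop were read from lists made with earlier results of these data known, and calls are by edgeR unless the study's procedure is named. Of 16 immediate early genes, transcription factors such as Fos, Egr1 and Nr4a1 together with the synaptic gene Arc, 11 were higher at 3 h in PFC of saline mice (median log2 fold change 0.83; Egr2 2.44, Nr4a3 1.27 and Egr1 1.20 by the smallest p-values) and 10 in psilocybin mice (median 0.92; Arc 2.40, Egr2 2.33 and Nr4a3 1.10), where 2.39% and 2.70% of all genes were higher. In hypothalamus 2 of the 16 were higher in each treatment, Fosb (1.37 in saline and 0.89 in psilocybin mice) and Fosl2 (0.70 and 0.71), where 0.522% and 0.743% of all genes were higher, and the study's procedure called 4 of the 16 in saline and 3 in psilocybin mice, where it called 4.46% and 2.14% of all genes higher. Of 6 Sprouty and Spred genes tested, which encode inhibitors of the Ras-ERK cascade and are induced by it, 3 were higher at 3 h in PFC in both treatments: Spry4 (0.61 and 0.79), Spred2 (0.50 and 0.44) and Spry2 (0.32 and 0.43). In hypothalamus Spry4 (0.60) was higher in psilocybin mice and none of the 6 was called in saline mice by edgeR, where the study's procedure called 2 higher, beside its 4.46% of all genes.

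For the lists that follow, 4.72% of all genes were called in either direction in PFC of saline mice and 5.96% in psilocybin mice by edgeR, and 5.98% and 19.1% by the study's procedure. Of 14 genes of the Ras-ERK cascade, 0 were called in PFC in either treatment, with medians of 0.037 and 0.065, while the study's procedure called 1 higher in saline mice, and 1 higher and 1 lower in psilocybin mice. Of 13 genes of the JNK, p38 and ERK5 branches, Mapk14, the p38 kinase alpha, was higher (0.17) and Mapk7, the kinase ERK5, lower (-0.38) in saline mice, and Map2k3 was higher (0.49) and Mapk7 lower (-0.50) in psilocybin mice. By the study's procedure 1 of the 13 was higher and 1 lower in saline mice, and 2 were higher and 2 lower in psilocybin mice. Of 6 further MAP kinase phosphatases 1 was called in each treatment, Dusp16 lower in saline (-0.29) and Dusp7 higher in psilocybin mice (0.27). The study's procedure called 0 of these 6 in saline mice, and 1 higher and 1 lower in psilocybin mice. Of 10 atypical Dusp genes Dusp18 was higher in saline mice (0.35), and 0 were called in psilocybin mice, against 1 by the study's procedure. Of 6 relatives of Ier2, Ier5 and Btg2, edgeR called Ier5l, higher in psilocybin mice (0.75), and the study's procedure called 3 higher in these mice, where it called 9.60% of all genes higher. Of 15 genes of SRF, ETS and CREB factors Etv5 was higher in saline mice (0.31), and Srf (0.47) and Mrtfa (0.30) in psilocybin mice. With the study's procedure 2 of the 15 were higher in saline mice, and 4 higher and 1 lower in psilocybin mice. Of 10 subunits of the CCR4-NOT deadenylase 0 were called in saline mice, and in psilocybin mice Cnot9 was higher (0.22) and Cnot10 lower (-0.26). Under the study's procedure 0 of these 10 were called in saline mice, and 1 was higher and 2 lower in psilocybin mice. Of the 5 Dusp genes followed here, 3 were higher in saline mice and 4 in psilocybin mice, where 2.39% and 2.70% of all genes were.

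The regions were compared in saline mice at 4 weeks, in whom no injection was recent. Of the 8 genes, 5 were higher in PFC than in hypothalamus and none lower, where 29.5% of all genes were higher and 25.7% lower. Dusp14 was 5.14-fold higher (log2 2.36 ± 0.084, SE, n = 8 and 8, adjusted p = 1.47e-32, edgeR), Ier5 3.61-fold (log2 1.85 ± 0.10, adjusted p = 2.34e-24, edgeR) and Dusp6 2.55-fold (log2 1.35 ± 0.15, adjusted p = 8.59e-12, edgeR). These 3 genes had ranges that did not overlap between regions, as had 15.4% of all genes in that direction. Dusp5 was 1.64-fold (adjusted p = 0.00316, edgeR) and Dusp1 1.56-fold higher (adjusted p = 0.00311, edgeR). Btg2 missed the threshold at 0.46 (adjusted p = 0.0504, edgeR) and passed in 6 of 14 alternatives that leave out no single library: the replicate block (0.44, adjusted p = 0.0435), the animal as a block (0.39, adjusted p = 0.00572), the study's procedure (0.40, adjusted p = 0.0339, limma), only the groups compared, pools B and D, and without the 3 libraries with hepatocyte markers. It also passed when any 1 of 7 libraries was left out: PFC saline 4 weeks replicate 1, 2, 4 or 8, hypothalamus saline 4 weeks replicate 3 or 6, or hypothalamus psilocybin 4 weeks replicate 5 (0.47 to 0.54, adjusted p = 0.0231 to 0.04997, edgeR). Ier2 was at 0.40 and Dusp4 at -0.24, the only one of the 8 with a lower mean in PFC. The Dusp5 call was lost within pools B and D (0.61, adjusted p = 0.112, edgeR) and the Dusp1 call within pools A and C (0.65, adjusted p = 0.0640, edgeR) and without the 4 libraries that stood apart (0.43, adjusted p = 0.0553, edgeR), and 4 to 6 of the 8 were called over the alternatives. Without PFC saline 4 weeks replicate 3, Dusp1 was at 0.40 (adjusted p = 0.0644, edgeR) and Dusp4 was lower in PFC (-0.44, adjusted p = 0.0248, edgeR). As that library was set apart for its high early gene levels, this Dusp4 call cannot serve as support. Markers of other cell types also differed between the regions: all 6 oligodendrocyte markers were lower in PFC (median -1.08), and all 6 microglial (0.77) and all 6 endothelial markers higher (0.60), and their part in the result was not tested. As both samples come from the same mice, the comparison is within animals, while the test took the libraries as independent.

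Within a group, mice that were high for one of these genes in PFC tended to be high for others. Deviations of log2 CPM from the means of group and extraction pool were correlated across 31 PFC libraries, which are described here with no test since the libraries also share their handling and depth. Over the 28 pairs of genes the median Pearson r was 0.53, 25 were positive, and the pairs ran from -0.25 (Dusp14 with Btg2) to 0.84 (Dusp1 with Btg2). Over all PFC libraries Dusp14 had r between -0.25 and 0.15 with the other 7 genes. When the 7 libraries that stood apart or held hepatocyte markers were left out, the PFC median was 0.50 over 27 libraries, 25 pairs were still positive, and Dusp14 reached an r of 0.34 with Dusp4 and 0.21 with Dusp5. In hypothalamus the median was 0.24 over 31 libraries with 20 positive pairs, and 0.14 over 28 libraries with 19 positive pairs.

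The nearest gene by r was sought among the 18971 genes tested, leaving out the genes followed here. By PFC deviations, Arc was the most like Dusp1 (r = 0.95 over 31 libraries, and 0.94 over 27). Arc was also the nearest to Btg2 (0.81), Egr2 to Dusp4 (0.76), Nr4a1 to Dusp5 (0.85), Klf10 to Dusp6 (0.87), Gadd45b to Ier2 (0.84), Bhlhe40 to Ier5 (0.80) and Ppme1 to Dusp14 (0.81). These neighbours were named by rank of r alone. Among the genes followed here, Dusp1 was nearer to Btg2 than Arc was (r = 0.84 over 31 libraries, and 0.83 over 27). Without the 7 libraries the nearest PFC gene was another for Dusp4 (Midn, 0.74), Dusp14 (Cck, 0.86) and Ier2 (Arc, 0.89). In hypothalamus over 31 libraries the nearest were Upb1 to Dusp1 (0.70), Eea1 to Dusp4 (0.95), Ccdc136 to Dusp5 (0.78) and Igf1 to Dusp6 (0.83). Kcnmb4 was nearest there to Dusp14 (0.84), Fah to Ier2 (0.85), ENSMUSG00000118642 to Ier5 (0.87) and Pklr to Btg2 (0.80). Only Ier5 kept its nearest hypothalamus gene without the 7 libraries.

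**Figure D4:**
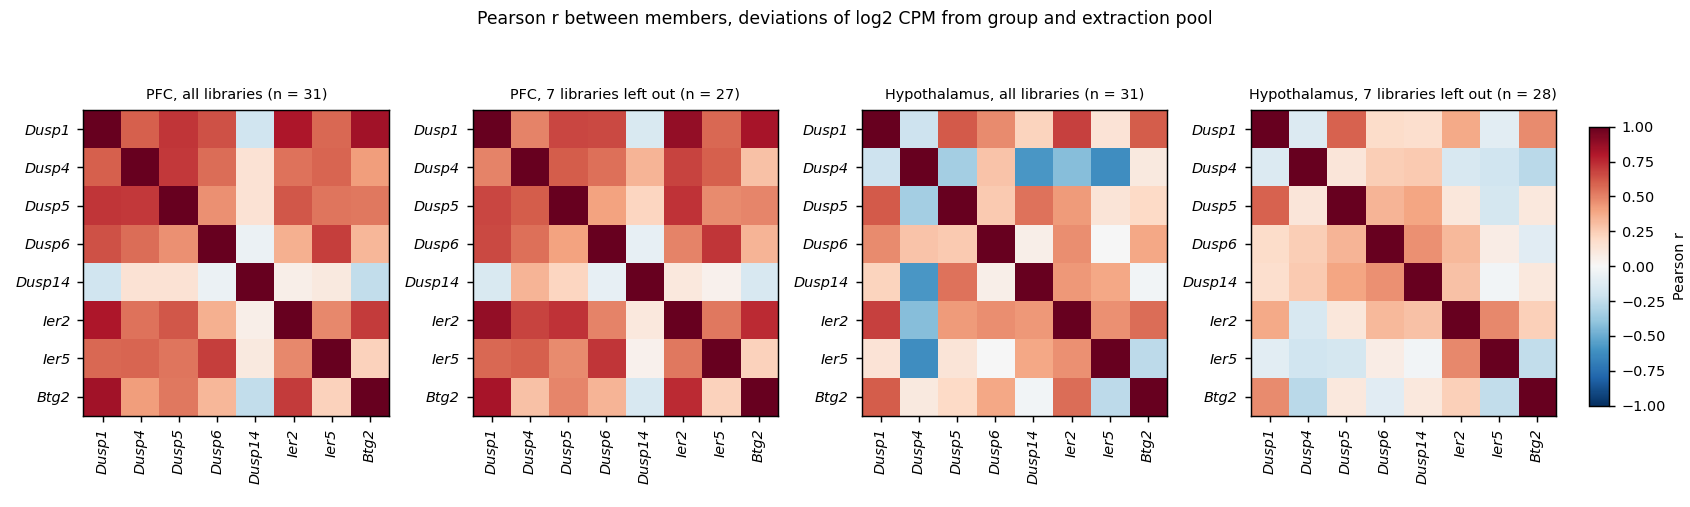
Pearson r (colour, from -1 to 1) between the deviations of each pair of genes in PFC and hypothalamus, over all libraries and without the 7 libraries named in the text. The PFC panels are mostly red outside the Dusp14 row, with medians of 0.53 and 0.50, and the hypothalamus panels paler, with medians of 0.24 and 0.14.

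Both regions could be set side by side in 30 mice, taking the samples of the same treatment, harvest and cage number as the same mouse. The deviation of Dusp1 in PFC went with that in hypothalamus (Pearson r = 0.68, adjusted p = 0.0004, Spearman rho = 0.50, adjusted p = 0.0310; two-sided permutation tests within groups with 100000 resamples, adjusted over the 8 genes). Btg2 gave r = 0.66 (permutation p adjusted 0.0004) and rho = 0.59 (adjusted p = 0.0101, permutation). Without the 2 mice farthest from the median PFC deviation, r was 0.62 for Dusp1 and 0.61 for Btg2. Within cages 1 to 4 it was 0.75 and 0.83 over 14 mice, and within cages 5 to 8 it was 0.61 and 0.39 over 16 mice. Without the mice of the 7 libraries that stood apart or held hepatocyte markers it was 0.52 and 0.58 over 24 mice. For the other 6 genes r lay between -0.16 (Ier5) and 0.31 (Ier2), with adjusted permutation p-values of 0.252 or more.

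**Figure D5:**
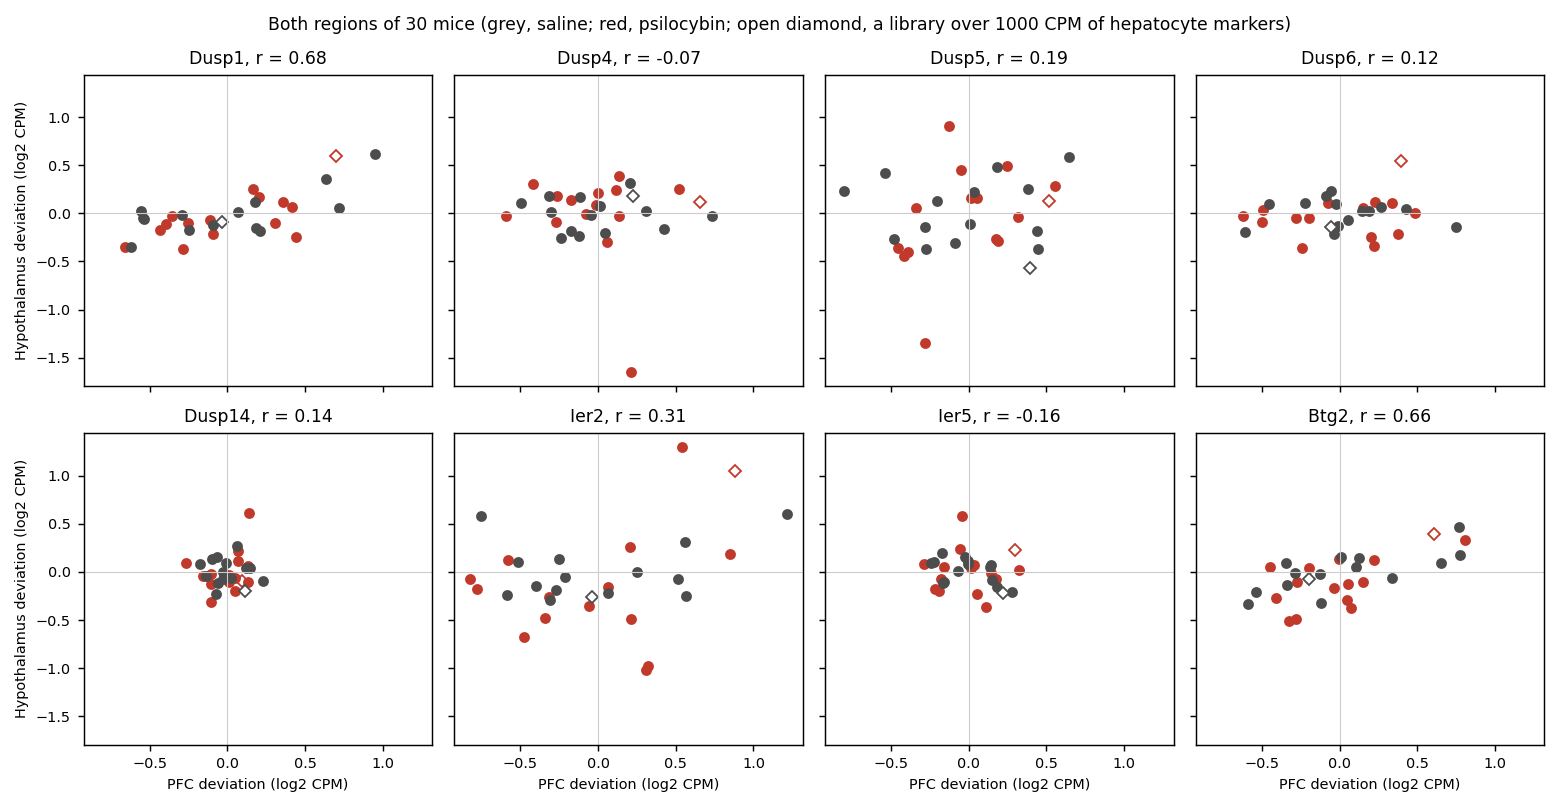
Deviation of log2 CPM from group and extraction pool in PFC (horizontal axes) and hypothalamus (vertical axes), 1 point per mouse for 30 mice. Points of Dusp1 (r = 0.68) and Btg2 (r = 0.66) run along a diagonal, while those of Dusp4 (r = -0.071) and Ier5 (r = -0.16) do not.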

How the data were processed

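Poly-A RNA libraries (TruSeq Stranded mRNA) were sequenced as 52-bp read pairs. Per the study's methods, reads were aligned with STAR 2.7.2b to GRCm38, and featureCounts 1.6.2 assigned them to the GENCODE gene model. The counts deposited by the authors are raw whole numbers, given beside the position and exon length of the genes. Groups, cage and extraction pool came from the labels.

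Libraries with at least 1000000 counts were kept (62 of 64). Genes were filtered with filterByExpr (minimum count 10), scaled by TMM and fitted with edgeR 4.0.16 (R 4.3.3; robust quasi-likelihood, group and extraction pool within region, all groups in 1 fit). P-values were Benjamini-Hochberg adjusted over 18971 genes and called under 0.05. Alternatives were the study's procedure (limma 3.58.1, animal block, consensus correlation 0.0282; a further library, which the authors excluded for wound healing and immune genes and did not name, was kept), DESeq2 1.42.0, RLE size factors, other filters, no pool, a replicate block, all 64 libraries, only the compared groups and each library left out. Leaving out groups of libraries and splitting by pool were chosen after seeing the data, as were the hepatocyte markers. The test was tried on simulated counts first.

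All 8 genes were named in full, other genes by the 3 smallest p-values within a list or by rank of r, and all called members of short lists. The genes, lists and tests were chosen with earlier results of these data known. The lowest chi-square per degree of freedom between replicates was 3.85 over 210 pairs, so no 2 libraries of a group agreed within sampling noise. The replicate number is the cage number. After removal of group and pool, same-numbered libraries correlated on average at -0.042 in PFC and -0.024 in hypothalamus. P-values measure the spread between mice of 1 experiment. Strand setting of the counting is described only as both read ends on the same strand.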

Additional observations from a re-analysis of the deposited data

Results flagged for a closer look

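In 14 of the 64 sets of 1 gene in 1 group, the highest or lowest library lay further from the rest than Dixon's 95% limit allows, which chance alone gives in about 1 of 20 independent sets of normal values. The sets of different genes share the same libraries and hold CPM on the raw scale, so the 14 cannot be set against that rate. PFC saline 4 weeks replicate 3 was high for Dusp1 (38.0 CPM), Dusp4 (8.38 CPM) and Ier2 (9.31 CPM). Hypothalamus saline 4 weeks replicate 3, the sample of the same cage, was high for Dusp1 (19.4 CPM), Ier2 (4.46 CPM) and Btg2 (15.4 CPM). It held 1238 CPM of choroid plexus markers, the most of any library, against a median of 46.3 CPM in its group, and their part in these levels was not tested. Hypothalamus psilocybin 4 weeks replicate 3 was high for Dusp1 (17.8 CPM) and Btg2 (29.6 CPM), and hypothalamus psilocybin 3 h replicate 5 for Dusp6 (31.5 CPM) and Ier2 (6.36 CPM). These last 2 libraries held the most hepatocyte marker counts of all, 5384 and 3885 CPM against a median of 3.25 CPM, and the part of these markers in the levels was not tested. Hypothalamus psilocybin 4 weeks replicate 5, which had the lowest quality weight, was low for Dusp4 (1.51 CPM) and high for Ier5 (29.2 CPM). It held 2897 CPM of hypothalamic markers, against at most 979.7 CPM in any other library, the most thalamic marker counts (1401 CPM) and the fewest astrocyte marker counts (2422 CPM), and the part of these markers in the levels was not tested. Hypothalamus saline 3 h replicate 1 was high for Dusp1 (18.7 CPM) and replicate 6 of that group for Ier5 (19.0 CPM).

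The harvest contrast of Ier5 in saline mice differed between the regions, by a log2 fold change of 0.73 (adjusted p = 0.0116, edgeR, test of the difference itself). The call was lost in 5 of 13 alternatives other than leaving out 1 library (no filter, no extraction pool, all 64 libraries, and either pair of pools). Ier5 was 90.5 ± 11.4 CPM at 3 h and 60.0 ± 6.92 CPM at 4 weeks in PFC (SD, n = 8 and 8), and 15.3 ± 1.68 and 16.7 ± 2.16 CPM in hypothalamus (SD, n = 7 and 8).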

How the results depend on the processing

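The 4 comparisons of psilocybin with saline called 0 of the 8 genes under every alternative run. In PFC between harvests, 4 genes in saline and 5 in psilocybin mice were called, and 0 in either within extraction pools B and D alone. The other alternatives called 3 to 5 genes in saline and 4 to 6 in psilocybin mice: Dusp5 was lost in psilocybin mice with no filter (0.74, adjusted p = 0.0532, edgeR) and was not tested in either when at least 10 counts were asked in every library, Dusp14 was gained under the study's procedure and Ier2 with only the groups compared, both in psilocybin mice, and in saline mice Dusp5 was lost within pools A and C and Dusp1 gained without the 4 libraries that stand apart. The regional difference of the harvest contrast called 1 gene, Ier5, and called 0 with no filter, with no extraction pool, with all 64 libraries and within either pair of pools, and 2 (with Dusp4) without the 4 libraries that stand apart. With single libraries left out that count ran from 1 to 2. Causes were not tested. The replicate block in place of the pool changed only the Btg2 call between regions (0.44, adjusted p = 0.0435, edgeR). The splits by pool and the sets of 4 and 3 libraries left out were chosen after seeing the data. PFC saline 4 weeks replicate 3, 1 of the 4, was set apart for its high early gene levels, so calls gained without it cannot serve as support. The counts of all genes called moved by over 1.5 times between settings: at 3 h in PFC psilocybin against saline called 2 genes by edgeR, 9 by DESeq2, 1232 by the study's procedure and 375 without the 4 libraries, and between harvests in PFC saline mice 896 genes were called, 44 within pools B and D and 1660 without the 4 libraries. For harvest in PFC psilocybin mice the main count of 1131 ran from 93 (pools B and D) to 3614 (study's procedure), in hypothalamus saline mice 130 ran from 12 to 1375 and in hypothalamus psilocybin mice 220 from 19 to 624 under the same settings, and between regions 10468 fell to 6653 in pools B and D.

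Of 973 values of single genes under an alternative other than leaving out 1 library, 888 kept direction and call, 19 lost a call, 11 gained a call and 55 changed sign, all of these uncalled (lowest adjusted p = 0.542, edgeR or the tool named). In what follows, psilocybin stands for the log2 fold change against saline and time for that of 3 h against 4 weeks. With at least 10 counts asked in every library, these were PFC 3 h psilocybin Btg2 0.00012. Under the study's procedure, these were PFC 3 h psilocybin Ier5 0.059, PFC 4 weeks psilocybin Dusp6 0.023, hypothalamus 3 h psilocybin Dusp1 -0.043, Dusp5 -0.018, Ier5 0.0074, hypothalamus 4 weeks psilocybin Dusp4 0.10, Ier2 -0.075, Ier5 -0.0037, hypothalamus saline time Dusp5 0.077 and hypothalamus psilocybin time Dusp14 0.086, Ier2 0.12. With only the groups of the comparison, these were PFC 3 h psilocybin Dusp1 0.0043, Btg2 0.015. Without the 4 libraries that stand apart, these were PFC 3 h psilocybin Dusp1 0.025, Ier5 0.0042, Btg2 0.026, PFC 4 weeks psilocybin Dusp5 0.022, hypothalamus 4 weeks psilocybin Dusp4 0.13 and hypothalamus psilocybin time Dusp14 0.086. In extraction pools A and C, these were PFC 3 h psilocybin Dusp5 0.040, Ier5 0.069, PFC 4 weeks psilocybin Dusp4 -0.060, hypothalamus 3 h psilocybin Dusp1 -0.080, Dusp4 0.12, hypothalamus 4 weeks psilocybin Dusp4 0.14, Dusp14 -0.17, hypothalamus saline time Dusp14 -0.14, Ier2 -0.15 and hypothalamus psilocybin time Dusp14 0.17. In extraction pools B and D, these were PFC 3 h psilocybin Dusp1 0.079, Ier2 0.34, Btg2 0.13, PFC 4 weeks psilocybin Dusp5 0.13, Dusp6 0.11, hypothalamus 3 h psilocybin Dusp5 -0.16, Dusp14 -0.033, Ier2 0.15, Ier5 0.078, hypothalamus 4 weeks psilocybin Dusp1 0.049, Dusp5 0.14, Btg2 -0.17, PFC saline time Btg2 -0.33, hypothalamus saline time Dusp5 0.13 and hypothalamus psilocybin time Dusp5 -0.18, Btg2 0.18. With the replicate block in place of the pool, these were PFC 4 weeks psilocybin Dusp5 0.030 and hypothalamus 3 h psilocybin Dusp5 -0.0065. Without the 3 libraries with hepatocyte markers, these were PFC 4 weeks psilocybin Dusp5 0.0017, hypothalamus 3 h psilocybin Dusp1 -0.10, Dusp6 -0.028, hypothalamus 4 weeks psilocybin Btg2 -0.16, PFC saline time Btg2 -0.0059 and hypothalamus psilocybin time Btg2 0.11. With no filter, these were hypothalamus psilocybin time Dusp14 0.040.

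With single libraries left out, 79 of 1272 values changed sign, none of them called. The lowest and highest log2 fold changes of the genes concerned were as follows. PFC 3 h psilocybin Btg2 -0.16 to 0.15, Dusp1 -0.14 to 0.11, Ier2 -0.23 to 0.020, Ier5 -0.057 to 0.038. PFC 4 weeks psilocybin Dusp5 -0.16 to 0.073, Dusp6 -0.10 to 0.072. Hypothalamus 3 h psilocybin Dusp1 -0.11 to 0.076, Ier2 -0.26 to 0.11, Ier5 -0.073 to 0.0056, Dusp5 -0.037 to 0.13, Dusp6 -0.033 to 0.11, Btg2 -0.0024 to 0.14. Hypothalamus 4 weeks psilocybin Dusp1 -0.12 to 0.076, Btg2 -0.16 to 0.22, Dusp4 -0.075 to 0.13. PFC saline time Btg2 -0.11 to 0.19. Hypothalamus saline time Dusp5 -0.15 to 0.031, Ier2 -0.021 to 0.19, Btg2 -0.12 to 0.0015. Hypothalamus psilocybin time Btg2 -0.22 to 0.17, Dusp14 -0.074 to 0.092.

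Ier2 and Dusp5 held 8 to 650 counts in a library, and 7 or 8 samples per group leave intervals for Ier2 that span more than 1 log2 unit.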
